A study of Homo sapiens with 34 samples.

Results

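The genes described here encode the contractile apparatus of striated muscle. They were chosen by name, as 35 symbols for proteins of the sarcomere and of the myofibril that contains it, and all 35 were found among the 23185 gene symbols of the count table. Where a gene had several transcript entries, the entry with the largest total count stood for it. The members fall into 4 groups by role. The thick filament group holds 9 genes (MYH6, MYH7, MYH7B, MYL2, MYL3, MYL4, MYL7, MYBPC3 and MYLK3). The thin filament group holds 11 genes (ACTC1, ACTA1, TPM1, TPM2, TNNT2, TNNI1, TNNI3, TNNC1, TMOD1, LMOD2 and LMOD3). Titin with the Z-disc and M-band gives 7 genes (TTN, ACTN2, NEBL, MYOM1, MYOM2, MYOM3 and OBSL1), and myofibril assembly and attachment gives 8 (UNC45B, KLHL41, XIRP1, XIRP2, DES, CRYAB, SYNPO2L and SGCD).

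The counts came from H1 cells, a widely used line of human ESCs, in which a lentivirus had integrated an shRNA that targets 1 of 3 transcription factors, NKX2-5, ZNF503 or ZEB2. The controls, called WT, were H1 cells that had received a GFP-directed shRNA or the vector alone, and the labels do not state which of these a given WT library carried. All lines were selected with puromycin, and each targeted gene is represented by 1 shRNA line, so an effect of the gene and an effect of that line cannot be told apart. Cells were sampled at days 0, 2, 6 and 10 of differentiation toward cardiomyocytes, which was started with CHIR99021, an inhibitor of GSK3β, and continued with IWP2, an inhibitor of WNT secretion, and later with insulin. Each group held 2 usable libraries, while for ZNF503 shRNA the day 10 cells were not analysed here. These comparisons ask how far the knockdown of each transcription factor changed the expression of these genes as the cells differentiated.

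A sarcomere is the repeating contractile unit of the myofibril. Myosin thick filaments pull on actin thin filaments that are anchored at the Z-disc, calcium binding to the troponin complex on tropomyosin switches the interaction on, and titin spans from the Z-disc to the M-band as a spring and a ruler. Many of these proteins exist as isoforms from separate genes. In the developing human heart the early cardiomyocyte contains both atrial-type and ventricular-type myosin light chains and the slow skeletal form of troponin I, and it exchanges several of these for adult forms as it matures.

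The 30 libraries used held 9189588 to 90798116 reads counted in gene entries (median 32188818), and the day 10 libraries were the shallowest, at 9189588 to 29548573. Levels are given as CPM, counts per 1000000 counts of the library after TMM scaling, in the order of the 2 replicates. A count of 3 in the shallowest library corresponded to 0.323 CPM. The study calls its replicates biological, and neither it nor the labels say whether they were separate cultures or differentiations, so p-values measure the spread between these libraries. NKX2-5 was at 1.30 ± 0.243% of WT (SD of 2 libraries) at day 6 and at 1.38 ± 1.26% at day 10 in its shRNA line. ZEB2 was at 58.5 ± 1.83% and 49.5 ± 0.00656% of WT in ZEB2 shRNA cells on the same days, and ZNF503 was at 6.98 ± 0.297% at day 6 in ZNF503 shRNA cells. The 4 skeletal muscle regulators (MYOD1, MYOG, MYF5 and MYF6) summed to at most 0.645 CPM in any library of days 6 and 10, while 10 cardiac regulators summed to 2566 and 1964 CPM in WT libraries at day 6.

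**Figure D1:**
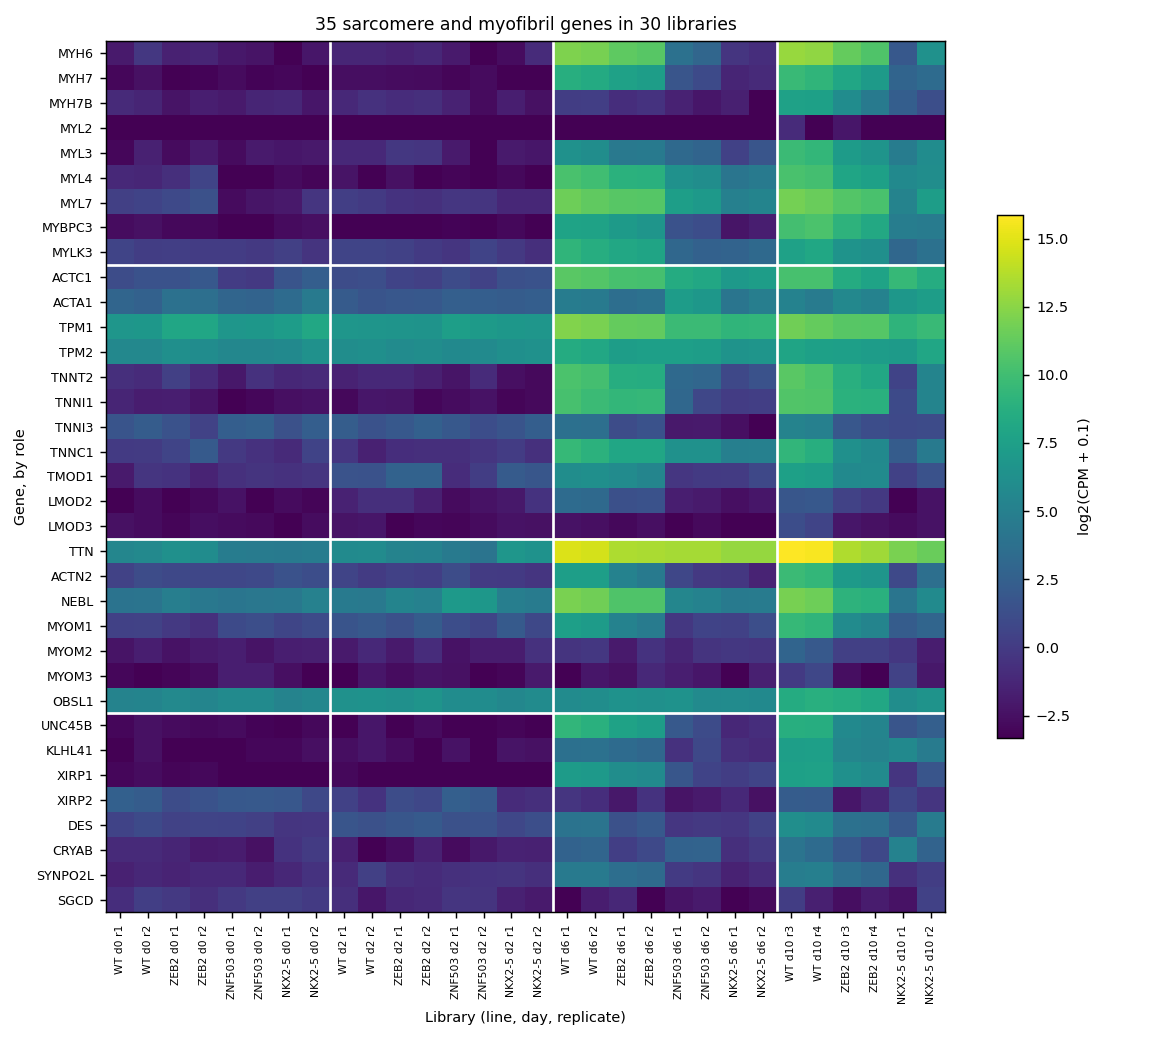
Level of each of the 35 members (rows, ordered by role) in each of the 30 libraries (columns, ordered by day and line), as log2(CPM + 0.1) by colour, with white lines between roles and between days. For most rows levels were low in every line at days 0 and 2, with TPM1, TPM2, TTN, NEBL and OBSL1 as the brighter exceptions, rose in WT libraries by day 6, and were lower in NKX2-5 shRNA and ZNF503 shRNA libraries than in WT libraries at day 6.

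In WT cells the sarcomere genes were nearly silent in ESCs and took up a large share of the counts by day 10. The CPM of the members together, given as a percentage of the TMM-scaled library total, was 0.0298 ± 0.00138% at day 0. It was 5.13 ± 0.728% at day 6 and 8.58 ± 0.789% at day 10 (SD, n = 2). The WT libraries of day 10 carry other replicate numbers than those of the earlier days. A step to day 10 therefore cannot be told apart from a difference between these replicate sets. By day 6, 30 of the 34 members tested had risen against day 0, 2 had fallen and 2 did not pass the test, where 31.3% of all genes tested had risen and 29.6% had fallen. The median log2 fold change of the members was 7.63, against 0.029 over all genes. MYH6, the fast atrial (alpha) myosin heavy chain, was counted at 0.160 and 0.785 CPM at day 0, 0.322 and 0.307 CPM at day 2, 4619.8 and 3949.7 CPM at day 6 and 7513 and 6539 CPM at day 10 (log2 fold change 13.15, SE 0.36, adjusted p = 1.8e-09, edgeR quasi-likelihood test, day 6 against day 0). TTN, which encodes titin, was at 45.3 and 53.1 CPM at day 0 and 56.6 and 62.3 CPM at day 2, then at 29941 and 24732 CPM at day 6 and 59569.5 and 53425 CPM at day 10 (log2 fold change 9.15, SE 0.19, adjusted p = 4.9e-10). For both genes every library of days 6 and 10 lay far above every library of days 0 and 2. At days 0 and 2 the antisense gene TTN-AS1 had 557 to 1206 counts per WT library where TTN had 1016 to 2028, so that without strand in the counting part of the early TTN signal could belong to it. At day 10 it had at most 95 counts in WT libraries, against at least 496820 for TTN.

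Not every member was off in ESCs. TPM1, a tropomyosin that non-muscle cells also use, stood at 110.2 and 115 CPM in WT cells at day 0 and was 5.35 higher at day 6 on the log2 scale (SE 0.17, adjusted p = 3.6e-09). TNNI3, the adult cardiac troponin I, was at 3.04 and 4.58 CPM at day 0, above TNNI1, the slow skeletal form of the fetal heart, at 0.294 and 0.183 CPM. By day 6 the order had turned, with TNNI3 at 13.6 and 12.4 CPM and TNNI1 at 1275 and 849 CPM. Another annotated gene overlaps TNNI3 exons on the same strand, and its part in the TNNI3 counts was not tested. The members that fell by day 6 were XIRP2, an actin-binding protein of the intercalated disc (log2 fold change -3.20, SE 0.38, adjusted p = 4.4e-05), and SGCD, delta-sarcoglycan of the membrane attachment complex (log2 fold change -2.69, SE 0.98, adjusted p = 0.036). Their WT levels were 5.76 and 4.74 CPM and 0.480 and 1.10 CPM at day 0, 0.693 and 0.457 CPM and 0 and 0.192 CPM at day 6, and 4.74 and 4.41 CPM and 1.03 and 0.215 CPM at day 10. At day 10 neither passed the test against day 0, while the other 32 members tested had risen from it and none had fallen (39.1% of all genes risen, 34.7% fallen). MYL2, the ventricular regulatory light chain, had no count in any library of days 0, 2 and 6, and at day 10 was counted in 1 of 2 WT libraries (8 and 0 counts) and 1 of 2 ZEB2 shRNA libraries (4 and 0 counts).

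By day 2 fewer members had changed. Of 34 members tested in WT cells, 7 rose and 3 fell against day 0, where 21% of all genes tested rose and 23.1% fell. The largest rises were those of leiomodin and tropomodulin genes, which act at the pointed ends of thin filaments. LMOD2 had 2 counts at day 0 and 16 at day 2, a day 2 level higher by 12.8-fold (95% counting interval 3.00 to 115), and TMOD1 went from 0.160 and 0.680 to 2.83 and 2.76 CPM (log2 fold change 2.76, SE 0.38, adjusted p = 0.00027). XIRP2 fell from 5.76 and 4.74 to 1.22 and 0.613 CPM (log2 fold change -2.39, SE 0.36, adjusted p = 0.0005), and MYL4 had 26 counts at day 0 and 3 at day 2, a day 0 level higher by 5.43-fold (95% counting interval 1.66 to 28.0). The smallest called changes were those of NEBL and ACTA1. NEBL, nebulette of the cardiac Z-disc, went from 16.0 and 16.8 to 23.7 and 21.2 CPM (log2 fold change 0.50, SE 0.15, adjusted p = 0.018), and ACTA1 fell from 7.47 and 6.15 to 4.41 and 3.13 CPM (log2 fold change -0.78, SE 0.24, adjusted p = 0.023). The count of 10 members was 6 without WT day 0 replicate 1 and 6 without WT day 2 replicate 2.

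Between days 6 and 10 the sarcomere transcripts of WT libraries differed in composition as well as in amount. These days also differ in replicate set, and the labels do not say whether the sets were differentiated or sequenced together. The rises and falls given here and below for WT cells between these days carry that limit. Of 34 members tested, 20 rose, 5 fell and 9 did not pass the test, with a median log2 fold change of 0.96. Among all genes tested 28.3% rose and 29.2% fell, and their median was -0.0094. Of the titin, Z-disc and M-band group 6 of 7 members rose, and of assembly and attachment 5 of 8. In the thin filament group 4 rose and 4 fell, and in the thick filament group 5 rose and 1 fell. The members that fell were ACTC1 (-0.55), TPM1 (-0.58), TPM2 (-0.57), the light chain kinase MYLK3 (-1.02) and the filament-lengthening leiomodin LMOD2 (-1.40), in log2 units. The fall of TPM1 is that of the entry used and depends on it. A second TPM1 entry had 88.2 ± 0.552% of its counts at day 6 and 119.6 ± 7.76% at day 10.

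The largest rise belonged to MYH7B, a myosin heavy chain gene related to MYH7 whose intron carries a muscle microRNA. It went from 0.997 and 1.08 CPM in WT libraries at day 6 to 201 and 193 CPM at day 10 (log2 fold change 7.58, SE 0.17, adjusted p = 1.4e-08). LMOD3, a second leiomodin, went from 0.0867 and 0.0722 to 2.16 and 1.40 CPM (log2 fold change 4.51, SE 0.65, adjusted p = 0.00024), and KLHL41, a Kelch protein that stabilizes nebulin-family proteins, from 13.4 and 13.8 to 172 and 184 CPM (log2 fold change 3.74, SE 0.17, adjusted p = 3.2e-07). In each case both day 10 libraries were above both day 6 libraries. MYL3, the ventricular essential light chain, rose from 83.1 and 68.3 to 854 and 669.8 CPM (log2 fold change 3.36, SE 0.19, adjusted p = 1.1e-06). Its atrial counterpart MYL4 was at 1332 and 1014 CPM and then 1282 and 1145 CPM, and did not pass the test (adjusted p = 0.67).

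Cross-linking and thick filament proteins rose as well. MYBPC3, cardiac myosin binding protein C, rose from 221 and 208 to 1138 and 1357 CPM (log2 fold change 2.57, SE 0.12, adjusted p = 9.8e-07), and ACTN2, the sarcomeric alpha-actinin of the Z-disc, from 172 and 172 to 852 and 676 CPM (log2 fold change 2.18, SE 0.17, adjusted p = 6.8e-06). The myomesins of the M-band all rose, by 2.10 for MYOM1, 3.01 for MYOM2 and 3.96 for MYOM3 on the log2 scale, the last from only 5 counts at day 6. OBSL1, a cytoskeletal linker related to obscurin, rose by 2.69, and DES, the intermediate filament desmin, by 2.02. By contrast, day 6 levels of MYL4, MYL7, NEBL, TNNT2 and TNNC1 were already at 76.6% to 122% of their day 10 levels. Under the thresholds that the study used at this day, 8-fold and 1% FDR, 7 members were called, all higher (2.73% of all genes).

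**Figure D2:**
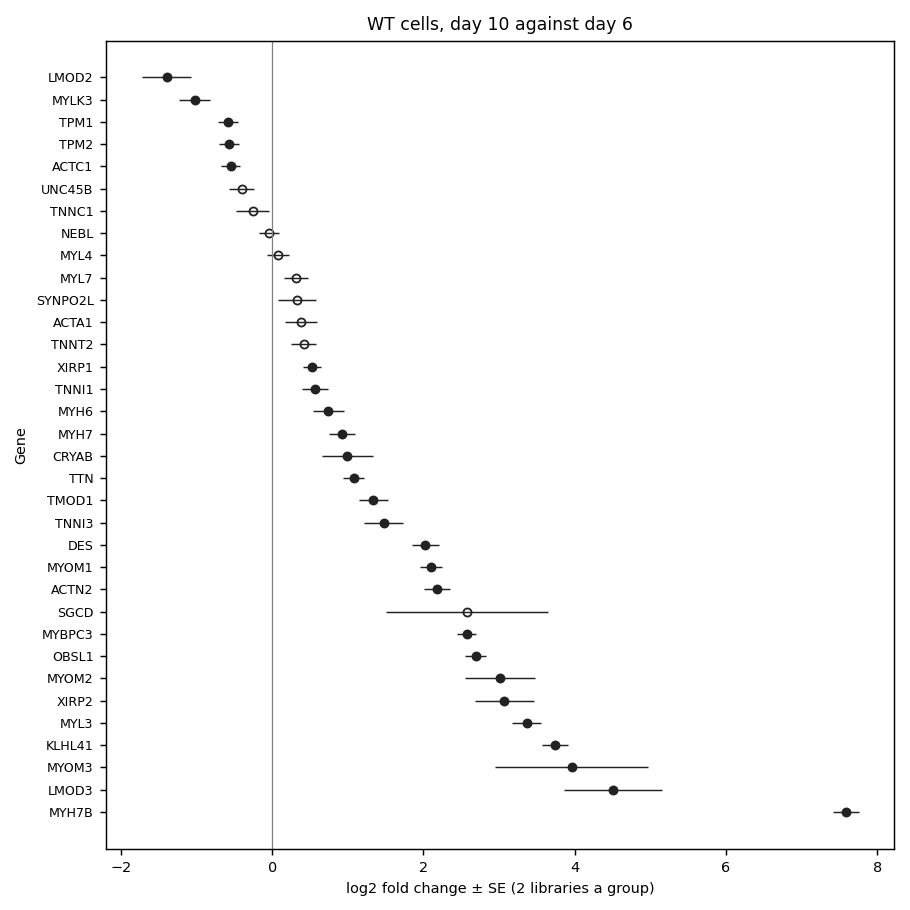
Log2 fold change of each member in WT cells, day 10 against day 6 (points, bars give ± 1 SE of the fit, open circles did not pass 5% FDR), with members in rows by size of change. The point furthest to the right is MYH7B at 7.58 and that furthest to the left LMOD2 at -1.40.

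Per kilobase of transcript, which is the scale on which genes can be compared, the myosin light chain MYL7 was the most abundant member in WT cells at day 10, at 5352 CPM per kb (libraries 4636 to 6068). TPM1 came next at 2422 CPM per kb. TNNT2, cardiac troponin T, and MYL4 followed at 1436 and 1419 CPM per kb, and their libraries overlapped. MYH6 was at 1183, ACTC1 at 904, MYL3 at 861, TNNC1, cardiac troponin C, at 755 and TTN at 517 CPM per kb. TNNI1 came lower, at 252 CPM per kb, by a transcript of 6110 bases of which 561 are coding. Its place in this order therefore depends on the length used. The libraries of ACTC1, MYL3 and TNNC1 overlapped in that order, and those of TTN were clear of their neighbours. MYH6 was clear of MYL4 and ACTC1 but overlapped TNNT2 (1101 to 1265 against 1162 to 1710 CPM per kb).

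Pairs of related genes were followed as the share of the first in the pair, per kilobase. In WT and ZEB2 shRNA cells the libraries of day 10 again carry other replicate numbers than those of day 6. MYH7, the slow (beta) myosin heavy chain, made up 8.10 ± 0.305% of MYH6 and MYH7 at day 6 in WT cells and 9.02 ± 1.29% at day 10. ZEB2 shRNA cells had 8.32 ± 0.314% and 8.71 ± 0.462% on these days, so this ratio lay within 1 percentage point of WT on both days. MYL3 made up 5.90 ± 0.303% of MYL3 and MYL4 in WT cells at day 6 and 37.6 ± 2.15% at day 10. The same step was present in ZEB2 shRNA cells, from 4.31 ± 0.302% to 34.4 ± 2.71%, and in NKX2-5 shRNA cells, from 8.85 ± 3.64% to 40.3 ± 11.8%, at much lower levels of both genes. The share of TNNI3 in TNNI1 and TNNI3 rose from 8.39 ± 1.71% to 14.2 ± 0.915% in WT cells, and was 2.49 ± 0.397% and then 4.16 ± 1.08% in ZEB2 shRNA cells. That last share depended on the length used, since the TNNI1 transcript is long, and was 1.11% and 1.99% in WT cells with coding length. MYL2 was 0.00434% of MYL2 and MYL7 in WT cells at day 10.

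MYH6, MYH7 and MYH7B each carry a microRNA in an intron, and the mature sequences show how close these 3 are. MYH6 lies on the minus strand at chr14:23851191-23877482 and MYH7 beside it at chr14:23881949-23904869, both GRCh37, with MYH7B on the plus strand at chr20:33543613-33590240. In the RefSeq sequences below (GRCh38.p14 annotation) the seed, bases 2 to 8, is in capitals.
hsa-miR-208a-3p (in MYH6): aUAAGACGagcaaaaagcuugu
hsa-miR-208b-3p (in MYH7): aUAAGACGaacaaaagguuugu
hsa-miR-499a-5p (in MYH7B): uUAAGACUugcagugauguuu
The seeds of miR-208a-3p and miR-208b-3p are identical, and miR-499a-5p has another. Few reads were counted for the hairpins. The miR-208a entry had 107 counts over all 30 libraries, miR-208b had 1 and miR-499a had 7. All 107 fell in WT and ZEB2 shRNA libraries of days 6 and 10. At these counts no comparison of the microRNAs was made. The transcripts of MYH6 and MYH7 share 14.8% and 14.6% of their 50-base words, so that a part of their reads cannot be assigned with certainty to 1 of the pair.

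At day 6 most sarcomere genes were far below WT in NKX2-5 shRNA and ZNF503 shRNA cells, and moderately below in ZEB2 shRNA cells. In NKX2-5 shRNA cells 27 of the 31 members tested were lower than in WT, none was higher and 4 did not pass, where 24.7% of all genes tested were lower and 24.5% higher. The median log2 fold change was -5.82 over the members and -0.0016 over all genes. In ZNF503 shRNA cells 26 were lower and 1 was higher (28.5% of all genes lower, 27.2% higher), with a median of -4.39. In ZEB2 shRNA cells 23 were lower and none was higher (5.33% of all genes lower, 5.67% higher), with a median of -1.10. MYL2, LMOD3, MYOM3 and SGCD were too low at this day to be tested. The 3 comparisons share the same 2 WT libraries. In bulk samples such as these, fewer cells of a type and less RNA per cell cannot be told apart. At the study's thresholds of 8-fold and 1% FDR, 24 members were lower with the NKX2-5 shRNA, 20 with that against ZNF503 and 0 with that against ZEB2 (background 3.42%, 2.91% and 0.225%).

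The thick filament group holds MYH6, the member with the lowest fitted value in the NKX2-5 and ZNF503 lines. MYH6 was at 0.662 and 0.461 CPM in NKX2-5 shRNA libraries, 13.8 and 8.11 CPM in ZNF503 shRNA libraries, 2148 and 1859 CPM in ZEB2 shRNA libraries and 4619.8 and 3949.7 CPM in WT libraries. The groups did not overlap, and their order was the same as that of the group means of the list as a whole. The NKX2-5 shRNA level was 0.0131 ± 0.00332% of WT (log2 fold change -12.96, SE 0.32, adjusted p = 1.1e-10), the ZNF503 shRNA level 0.256 ± 0.0946% (log2 fold change -8.63, SE 0.26, adjusted p = 4.7e-10) and the ZEB2 shRNA level 46.7 ± 4.77% (log2 fold change -1.09, SE 0.18, adjusted p = 0.0019). MYH7 was at 0.294 and 0.381 CPM in NKX2-5 shRNA, 3.26 and 1.90 CPM in ZNF503 shRNA, 204 and 166 CPM in ZEB2 shRNA and 425 and 343 CPM in WT libraries, again in 4 separate steps. MYBPC3, at 221 and 208 CPM in WT libraries, had 0.110 and 0.200 CPM in NKX2-5 shRNA (log2 fold change -10.30, SE 0.26, adjusted p = 1.1e-10), 2.70 and 2.27 CPM in ZNF503 shRNA and 140.3 and 103 CPM in ZEB2 shRNA libraries.

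In the NKX2-5 and ZNF503 lines the fitted values of the light chains tested were nearer to 0 than that of MYH6, while in the ZEB2 line those of MYL4 (-1.32) and MYL3 (-1.79) were further from 0 than that of MYH6 (-1.09). MYL7 was at 32.1 and 41.0 CPM in NKX2-5 shRNA, 171 and 130.3 CPM in ZNF503 shRNA, 1873 and 1793 CPM in ZEB2 shRNA and 3100.3 and 2282 CPM in WT libraries. In ZEB2 shRNA cells the MYL7 difference did not pass the test (log2 fold change -0.55, SE 0.17, adjusted p = 0.059), although its libraries were below both WT libraries. MYL4 fell by 5.82 on the log2 scale with the NKX2-5 shRNA, by 3.96 with that against ZNF503 and by 1.32 with that against ZEB2. MYL3 was at 1.21 and 3.23, 9.26 and 7.05, 21.1 and 22.6 and 83.1 and 68.3 CPM in NKX2-5 shRNA, ZNF503 shRNA, ZEB2 shRNA and WT libraries. The kinase MYLK3, which phosphorylates the regulatory light chain, was 1.62 ± 0.343%, 1.48 ± 0.347% and 53.4 ± 7.02% of WT in that order of lines.

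Troponin genes gave the same order of lines. TNNT2, the usual marker of cardiomyocytes in culture, was at 1.73 and 2.76 CPM in NKX2-5 shRNA, 9.26 and 7.98 CPM in ZNF503 shRNA, 404 and 376 CPM in ZEB2 shRNA and 1414 and 1148 CPM in WT libraries. The changes were -9.11 (SE 0.22, adjusted p = 1.1e-10), -7.22 (SE 0.20, adjusted p = 4.7e-10) and -1.71 (SE 0.15, adjusted p = 2.2e-05) on the log2 scale. TNNI1 was at 0.956 and 1.06, 8.55 and 1.58 and 677 and 712 CPM in the 3 knockdown lines and at 1275 and 849 CPM in WT libraries, and in ZEB2 shRNA cells its difference did not pass (log2 fold change -0.61, SE 0.36, adjusted p = 0.34). TNNI3 was counted 2 times in the NKX2-5 shRNA libraries and 831 times in the WT libraries, a WT level higher by 496-fold (95% counting interval 137 to 4100.1). TNNC1 had the fitted value nearest to 0 among the 4 troponin genes in the NKX2-5 and ZNF503 lines, though not in the ZEB2 line, where TNNI1 did. It was at 31.7 and 32.8 CPM in NKX2-5 shRNA, 85.3 and 82.4 CPM in ZNF503 shRNA, 258 and 261 CPM in ZEB2 shRNA and 743 and 523 CPM in WT libraries. All 3 of its differences passed, at -4.30, -2.92 and -1.28.

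Titin itself stood apart from its partners in NKX2-5 and ZNF503 shRNA cells. TTN was at 7423 and 7269 CPM in NKX2-5 shRNA, 10145 and 9752 CPM in ZNF503 shRNA, 11802 and 11131 CPM in ZEB2 shRNA and 29941 and 24732 CPM in WT libraries. All knockdown libraries were below the WT libraries, yet even the lowest was far above every day 0 library. The log2 fold changes were -1.90 (SE 0.12, adjusted p = 9.6e-08), -1.46 (SE 0.12, adjusted p = 9.7e-07) and -1.25 (SE 0.12, adjusted p = 2.6e-05), so that TTN was among the least reduced members in the first pair of lines. ACTN2, which binds titin at the Z-disc, was at 0.772 and 0.280, 1.63 and 0.811, 36.5 and 24.1 and 172 and 172 CPM in NKX2-5 shRNA, ZNF503 shRNA, ZEB2 shRNA and WT libraries, and was the most reduced member in ZEB2 shRNA cells (log2 fold change -2.48, SE 0.24, adjusted p = 3e-05). MYOM1, which binds titin at the M-band, changed by -6.49, -7.22 and -2.40. Because TTN is so large, it alone gave 0.735% of the TMM-scaled library total in NKX2-5 shRNA cells at day 6. All members together gave 0.843 ± 0.00365%.

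OBSL1 and MYOM2 did not pass in any of the 3 comparisons with WT at day 6. For OBSL1 the levels were 59.7 and 54.7 CPM in NKX2-5 shRNA, 89.7 and 58.6 CPM in ZNF503 shRNA, 88.0 and 78.7 CPM in ZEB2 shRNA and 59.9 and 67.2 CPM in WT libraries. The estimates were -0.16, 0.21 and 0.40 on the log2 scale, with the ZEB2 shRNA libraries above both WT libraries, the NKX2-5 shRNA libraries just below them and the ZNF503 shRNA libraries on both sides. MYOM2 was near the limit of detection, at 0.650 and 0.770 CPM in WT libraries. XIRP2 also did not pass in any of the 3, from 0.693 and 0.457 CPM in WT libraries.

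Most assembly and attachment genes were lower too. UNC45B, the chaperone that folds myosin heavy chains, changed by -10.32, -7.56 and -1.56 in the NKX2-5, ZNF503 and ZEB2 lines. XIRP1, an actin-stabilizing protein, changed by -6.81, -5.92 and -1.15, and SYNPO2L, a Z-disc actin binder, by -6.11, -4.96 and -1.10. DES was lower in all 3 lines too (-3.95, -4.39 and -2.35). TMOD1, the cap of the thin filament's pointed end, and KLHL41 were lower in NKX2-5 shRNA cells (-5.74 and -4.96) and in ZNF503 shRNA cells (-6.50 and -3.54), and in ZEB2 shRNA cells did not pass (-0.45 and -0.52). CRYAB, a small heat shock protein that protects desmin and titin, was at 0.515 and 0.801 CPM in NKX2-5 shRNA, 6.31 and 6.81 CPM in ZNF503 shRNA, 1.10 and 1.77 CPM in ZEB2 shRNA and 6.50 and 7.63 CPM in WT libraries. The ZNF503 shRNA libraries were close to WT (log2 fold change -0.11, SE 0.27, adjusted p = 0.75), and the other 2 lines were lower (-3.38 and -2.41).

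**Figure D3:**
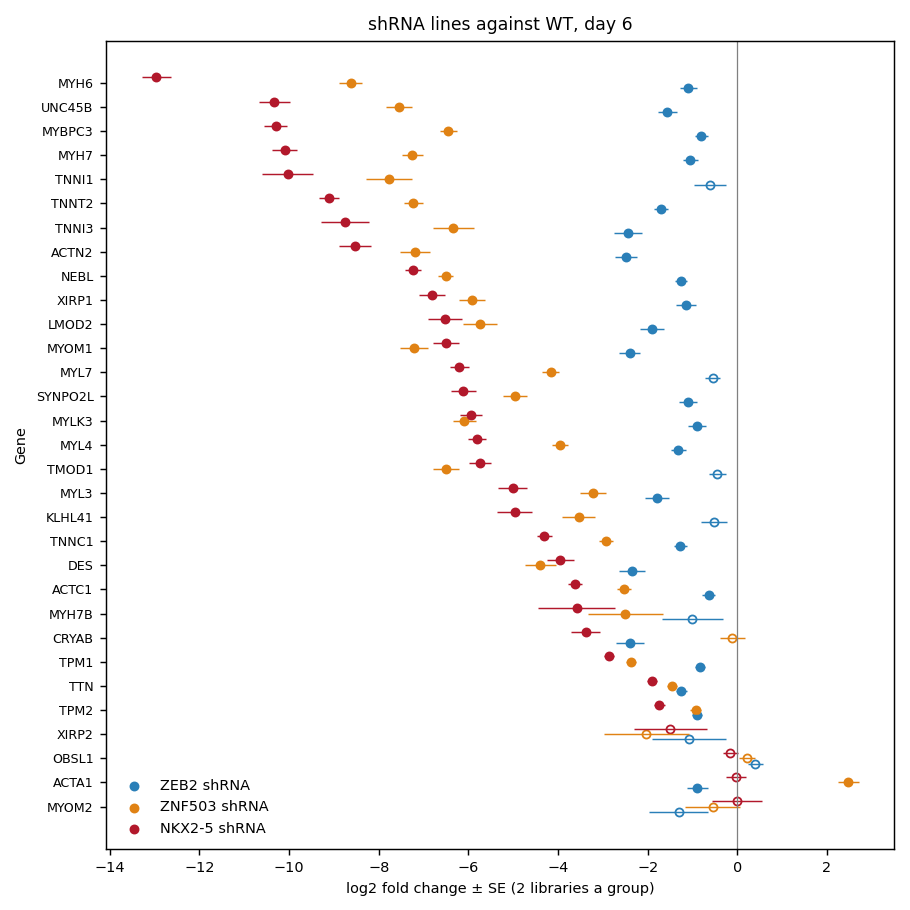
Log2 fold change of each member against WT at day 6, in rows, with the NKX2-5 line in red, the ZNF503 line in orange and the ZEB2 line in blue (bars ± 1 SE of the fit, open circles did not pass 5% FDR). MYH6 is furthest to the left in the NKX2-5 and ZNF503 lines, at -12.96 and -8.63, and ACTN2 in the ZEB2 line, at -2.48, and the one called point to the right of 0 is ACTA1 in the ZNF503 line, at 2.47.

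The striated muscle actins went different ways. ACTC1, the cardiac alpha-actin, was at 135 and 168 CPM in NKX2-5 shRNA, 359.8 and 287 CPM in ZNF503 shRNA, 1212 and 1167 CPM in ZEB2 shRNA and 2034 and 1697 CPM in WT libraries at day 6. Every knockdown library was below WT, with log2 fold changes of -3.63, -2.53 and -0.64. ACTA1, the skeletal alpha-actin, which the early heart also expresses, was at 17.3 and 29.9 CPM in NKX2-5 shRNA, 155 and 115 CPM in ZNF503 shRNA, 12.4 and 13.9 CPM in ZEB2 shRNA and 26.3 and 22.4 CPM in WT libraries. Here the ZNF503 shRNA libraries were above all others (log2 fold change 2.47, SE 0.23, adjusted p = 3.2e-06), the ZEB2 shRNA libraries were below WT (log2 fold change -0.90, SE 0.23, adjusted p = 0.028), and the NKX2-5 shRNA libraries spanned the WT values (log2 fold change -0.037, SE 0.22, adjusted p = 0.9). As a share of both actins per kilobase, ACTA1 was 1.20 ± 0.0183% in WT, 1.01 ± 0.107% in ZEB2 shRNA, 12.4 ± 2.53% in NKX2-5 shRNA and 27.9 ± 1.03% in ZNF503 shRNA cells.

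Promoter sequence is shown for both actins and for MYL7, because these hold a CArG box, the site bound by serum response factor. The 150 bases before each RefSeq transcript start are given 5′ to 3′ on the gene's strand, which is the minus strand in each case, with the CArG box in capitals (GRCh38.p14, chr1:229434095-229434244, chr15:34795550-34795699 and chr7:44141333-44141482).
ACTA1: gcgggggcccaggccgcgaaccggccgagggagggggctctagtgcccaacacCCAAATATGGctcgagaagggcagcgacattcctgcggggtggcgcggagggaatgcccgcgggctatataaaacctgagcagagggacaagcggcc
ACTC1: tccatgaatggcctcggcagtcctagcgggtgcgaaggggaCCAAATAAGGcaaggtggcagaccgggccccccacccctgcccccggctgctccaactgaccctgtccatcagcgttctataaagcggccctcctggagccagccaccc
MYL7: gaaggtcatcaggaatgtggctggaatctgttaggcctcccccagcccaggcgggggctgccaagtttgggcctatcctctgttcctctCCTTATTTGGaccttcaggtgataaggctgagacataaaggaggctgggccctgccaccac
The box begins at -97 in ACTA1, -109 in ACTC1 and -61 in MYL7, counted from the base before the transcript start as -1. MYOM1, whose promoter is not shown, also holds a CArG box, at -32. Of the 35 members 25 had a promoter in the RefSeq table, and 4 of these (16%) held a CArG box on either strand within 250 bases before to 50 after the start, against 1.29% of 27305 promoters. A MEF2 site, bound by the MEF2 factors, was in 6 of the 25 (24%, against 3.09% of all), among them TTN and MYBPC3. The shorter MCAT element CATTCC was in 28% against 14%, the GATA letters AGATAA in 32% against 10.5%, the NKX2-5 letters TNAAGTG in 24% against 10.3% and TATAAA in 16% against 12%. The ACTA1 promoter holds CATTCC 2 times, and ACTC1 in this window does not hold it. ACTA1 and ACTC1, which changed in opposite directions in ZNF503 shRNA cells, both hold the CArG box and TATAAA. These are matches of letters and say nothing about which factor was bound.

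The lines were also compared with each other at day 6, which does not use the WT libraries except to estimate the spread. Against NKX2-5 shRNA cells, ZEB2 shRNA cells were higher in 28 of 31 members and lower in 1, ACTA1 (log2 fold change -0.86, SE 0.23, adjusted p = 0.0097), where 23.1% of all genes were higher and 21.3% lower. Against ZNF503 shRNA cells they were higher in 23 and lower in 2 (25.6% and 23.7% of all genes). Those 2 were ACTA1 (-3.37) and CRYAB (-2.29). NKX2-5 shRNA cells were lower than ZNF503 shRNA cells in 17 of 31 members and higher in none, where 8.8% of all genes were lower and 5.91% higher. The gap was widest for MYH6 (log2 fold change -4.33, SE 0.30, adjusted p = 7.6e-06) and MYBPC3 (log2 fold change -3.85, SE 0.35, adjusted p = 5.7e-05), and MYOM1, TMOD1 and MYLK3 were among the 14 that did not pass.

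At day 10 most sarcomere genes of NKX2-5 shRNA cells were still far below WT. The NKX2-5 shRNA libraries of this day were replicates 1 and 2, and the WT libraries were replicates 3 and 4. The labels do not say whether these sets were differentiated or sequenced together. A difference between the sets therefore cannot be told apart from a difference between the lines. Of 34 members tested 29 were lower than in WT, 1 was higher and 4 did not pass (20.6% of all genes lower, 23.3% higher), with a median log2 fold change of -4.48 against 0.028 over all genes. The members summed to 8459.7 and 8408 CPM in this line at day 6 and 6045 and 5178 CPM at day 10, and to 56432 and 46135 CPM and 91391 and 80232 CPM in WT libraries. Among single members TNNC1 was at 31.7 and 32.8 CPM and then 4.82 and 24.3 CPM in the NKX2-5 line, a step that was not tested within the line. The 2 NKX2-5 shRNA libraries differed more from each other than those of any other group. Among members with at least 10 counts, their median fold between replicates was 2.26, against 1.17 to 1.60 in the other groups, 13 of 32 differed by over 3-fold, and 23 of 32 were higher in replicate 2. TNNT2 was at 1.34 CPM in replicate 1 and 39.9 CPM in replicate 2, a 29.9-fold gap, and at 1993 and 1354 CPM in WT libraries (log2 fold change -6.35, SE 1.31, adjusted p = 0.0077). MYH6 was at 3.86 and 81.7 CPM against 7513 and 6539 CPM in WT (log2 fold change -7.36, SE 1.33, adjusted p = 0.0046), and TNNI1 at 1.86 and 41.0 CPM against 1589 and 1496 CPM. For all 3 genes both replicates were below both WT libraries, by more CPM than lay between them. Without replicate 1 or replicate 2 of NKX2-5 shRNA cells, or without a WT library, 26 to 32 members passed in place of 30. At the study's thresholds 23 members were lower (2.85% of all genes).

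In these libraries ACTC1 was the least reduced of the called members, at 728 and 376 CPM against 1258 and 1241 CPM in WT (log2 fold change -1.17, SE 0.36, adjusted p = 0.032). ACTA1 was the one member higher than in WT, at 113 and 168 CPM against 36.1 and 25.4 CPM (log2 fold change 2.19, SE 0.29, adjusted p = 0.0014). TTN was at 4128 and 2790.1 CPM against 59569.5 and 53425 CPM, the groups being far apart (log2 fold change -4.02, SE 0.38, adjusted p = 0.00043). CRYAB differed between the replicates in the other direction, at 36.9 and 6.85 CPM, around the 16.9 and 10.4 CPM of WT (log2 fold change 0.68, SE 0.73, adjusted p = 0.48). TPM2, a tropomyosin with wide expression outside the heart, was at 140.1 and 255 CPM against 241 and 188 CPM (log2 fold change -0.11, SE 0.30, adjusted p = 0.78). LMOD2 and LMOD3 had 2 and 3 counts in the NKX2-5 shRNA libraries and were higher in WT by 75.6-fold (95% counting interval 20.4 to 632) and 26.9-fold (95% counting interval 8.74 to 134).

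Markers of other cell types moved in the same libraries. At day 10 the 5 erythroid markers summed to 870.0 and 1039.7 CPM in NKX2-5 shRNA libraries and to 39.1 and 10.0 CPM in WT libraries, and all 5 were higher by the test, where 23.3% of all genes were. The 5 endoderm and hepatic markers summed to 38945 and 27483 CPM against 3622 and 1437 CPM, all 5 higher. The ZEB2 shRNA libraries had 6754 and 8113 CPM of the latter, with 4 of 5 higher than in WT (10.5% of all genes), and 4.97 and 7.55 CPM of the former. No marker of either list was at 0 over both libraries of a group at day 10. At day 6 the endoderm and hepatic sum was 3121 and 3325 CPM in NKX2-5 shRNA, 3117 and 3112 CPM in ZNF503 shRNA, 319 and 476 CPM in ZEB2 shRNA and 306 and 626 CPM in WT libraries. Their part in the results was not tested. The 8 smooth muscle markers, which could bear on the actins and tropomyosins, summed to 573 and 896 CPM in NKX2-5 shRNA, 711 and 594 CPM in ZEB2 shRNA and 938 and 669 CPM in WT libraries at day 10, and these ranges overlapped. At day 6 they summed to 166 and 236 CPM in NKX2-5 shRNA, 867 and 671 CPM in ZNF503 shRNA, 577 and 619 CPM in ZEB2 shRNA and 1200.3 and 879.9 CPM in WT libraries, so that every knockdown library was below both WT libraries and the NKX2-5 shRNA libraries were lowest. By the test 4 of the 8 were lower than WT and none higher in the NKX2-5 line, 3 lower and 3 higher in the ZNF503 line, and 2 lower and none higher in the ZEB2 line, against 24.7%, 28.5% and 5.33% of all genes lower. The part of these genes in the results was not tested either.

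ZEB2 shRNA cells at day 10 were lower than WT in 21 of 34 members, higher in none, and 13 did not pass, where 7.68% of all genes tested were lower and 10.5% higher. Their median log2 fold change was -2.18, against 0.026 over all genes, and 32 of the 34 tested were lower in both ZEB2 shRNA libraries than in both WT libraries, as were 33.3% of all genes. The count of calls depended on which libraries were fitted together. In a fit of the WT and ZEB2 shRNA libraries alone 30 members passed, all of them lower, where 17.1% of all genes were lower. The cause of that step was not tested. Leaving out 1 library reduced the count to 5 without WT replicate 3, 5 without WT replicate 4, 7 without ZEB2 shRNA replicate 3 and 4 without ZEB2 shRNA replicate 4. At the study's thresholds 4 members were lower (0.482% of all genes).

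Among the called members, XIRP2 (log2 fold change -4.33, SE 0.70, adjusted p = 0.0083), LMOD3 (log2 fold change -4.02, SE 0.71, adjusted p = 0.011) and MYOM1 (log2 fold change -3.76, SE 0.33, adjusted p = 0.002) had the largest fitted differences apart from MYOM3. MYOM3 had 2 counts in ZEB2 shRNA libraries and 32 in WT libraries, a WT level higher by 31.1-fold (95% counting interval 7.94 to 268). TNNI3 was at 3.55 and 2.22 CPM in ZEB2 shRNA libraries and 38.2 and 32.4 CPM in WT libraries (log2 fold change -3.61, SE 0.33, adjusted p = 0.0022), and TTN at 12043 and 9002 CPM against 59569.5 and 53425 CPM (log2 fold change -2.43, SE 0.35, adjusted p = 0.0057). TNNC1 was at 81.2 and 54.1 CPM against 629 and 409 CPM (log2 fold change -2.95, SE 0.66, adjusted p = 0.023), and NEBL at 546 and 471 CPM against 3835 and 3158 CPM (log2 fold change -2.79, SE 0.50, adjusted p = 0.011). In these cases the groups were well apart. SYNPO2L (-1.51) and MYLK3 (-1.52) had the smallest differences that passed.

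Several of the most abundant genes did not pass at day 10 in ZEB2 shRNA cells in the fit of all day 10 groups together, although their levels were lower in both libraries. In the fit of WT and ZEB2 shRNA libraries alone, 9 of the 33 members tested gained a call, all of them lower. A gene listed here as not passing is therefore not shown to be unchanged. MYH6 was at 2589 and 1541 CPM against 7513 and 6539 CPM in WT (29.4 ± 10.6% of WT, log2 fold change -1.77, SE 1.03, adjusted p = 0.27). TNNT2 was at 433 and 294 CPM against 1993 and 1354 CPM (log2 fold change -2.21, SE 1.08, adjusted p = 0.2), and MYL7 at 1729 and 1330.0 CPM against 3713 and 2837 CPM (log2 fold change -1.11, SE 0.57, adjusted p = 0.22). TNNI1 (-1.70), TPM1 (-0.69) and TPM2 (-0.37) likewise did not pass. OBSL1 (log2 fold change -0.27, SE 0.25, adjusted p = 0.48) and ACTA1 (log2 fold change 0.48, SE 0.28, adjusted p = 0.27) were at 374 and 293 CPM and 49.8 and 36.6 CPM, against 353 and 448 CPM and 36.1 and 25.4 CPM in WT. ACTC1 did pass, at 356 and 229 CPM against 1258 and 1241 CPM (log2 fold change -2.10, SE 0.37, adjusted p = 0.01), so that the share of ACTA1 in both actins was 12.2 ± 1.03% in ZEB2 shRNA cells and 2.23 ± 0.516% in WT cells. Of the 23 members lower at day 6 and the 21 lower at day 10 in ZEB2 shRNA cells, 14 were lower on both days.

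**Figure D4:**
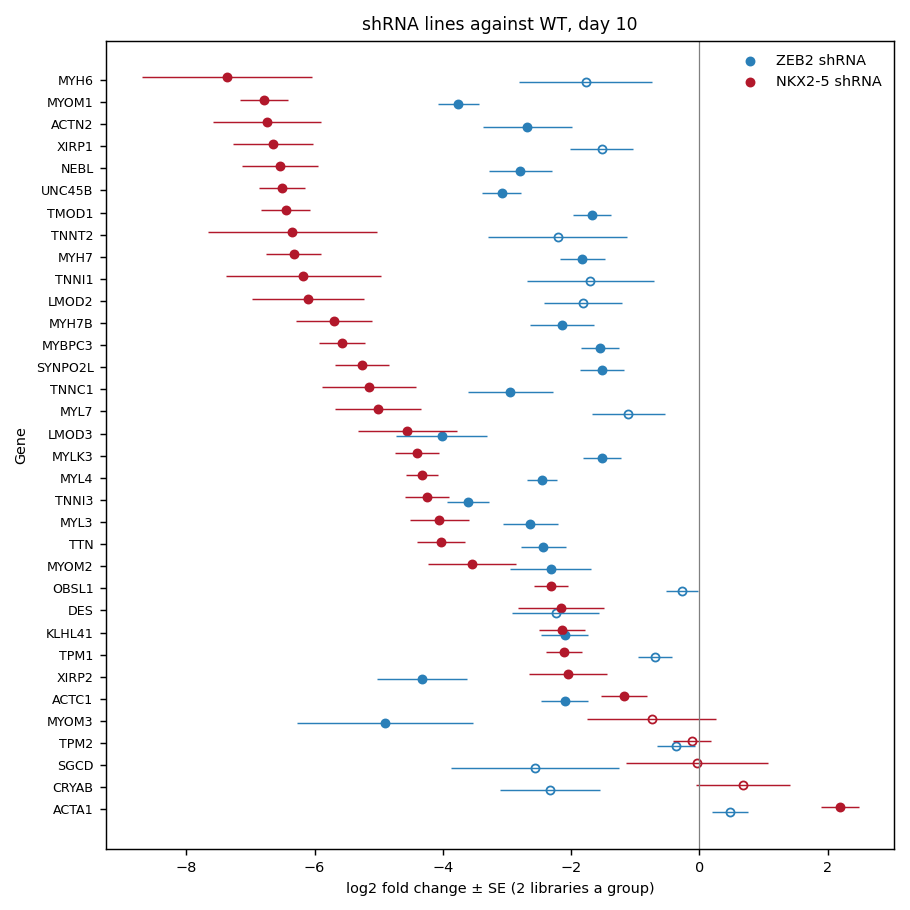
Log2 fold change of each member against WT at day 10, in rows, with the NKX2-5 line in red and the ZEB2 line in blue (bars ± 1 SE of the fit, open circles did not pass 5% FDR). Most points of NKX2-5 shRNA cells lie further to the left than those of ZEB2 shRNA cells, MYH6 at -7.36 against -1.77, and ACTA1 at 2.19 is the one called point to the right.

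These 2 lines were also compared directly at day 10, again as replicates 3 and 4 against replicates 1 and 2. ZEB2 shRNA cells were higher than NKX2-5 shRNA cells in 22 of 34 members and lower in 2 (10.8% and 10.6% of all genes). The 2 were ACTA1 (log2 fold change -1.71, SE 0.28, adjusted p = 0.0091) and CRYAB (log2 fold change -3.004, SE 0.79, adjusted p = 0.036). The count of 24 was 12 without ZEB2 shRNA replicate 3 and 14 without ZEB2 shRNA replicate 4.

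Whether the difference from WT itself changed between days 6 and 10 was tested as an interaction. The NKX2-5 shRNA libraries were replicates 1 and 2 on both days, while those of WT were replicates 3 and 4 at day 10 only. In that line a change in the difference therefore cannot be told apart from a difference between the replicate sets. In NKX2-5 shRNA cells the difference from WT became smaller or turned upward for 13 of 34 members and more negative for 3 (14.5% and 10.5% of all genes). The first set included MYH6 (log2 fold change 5.60, SE 1.40, adjusted p = 0.016), MYBPC3 (log2 fold change 4.74, SE 0.49, adjusted p = 0.00016), TNNI1 (log2 fold change 3.88, SE 1.25, adjusted p = 0.045) and ACTC1 (log2 fold change 2.47, SE 0.41, adjusted p = 0.0023). MYBPC3 showed it in the levels, from 0.110 and 0.200 CPM at day 6 to 27.3 and 25.0 CPM at day 10 with close replicates, while WT went from 221 and 208 to 1138 and 1357 CPM. The 3 members that went the other way were TTN (log2 fold change -2.11, SE 0.31, adjusted p = 0.0012), OBSL1 (log2 fold change -2.14, SE 0.28, adjusted p = 0.0006) and MYOM2 (log2 fold change -3.53, SE 0.92, adjusted p = 0.018). OBSL1 had stayed at 59.7 and 54.7 CPM at day 6 and 66.3 and 94.6 CPM at day 10 in the NKX2-5 line, while in WT cells it went from 59.9 and 67.2 to 353 and 448 CPM. In ZEB2 shRNA cells 4 members became lower relative to WT (2.48% of all genes, with 3.82% higher), TTN (-1.20), MYL4 (-1.14), UNC45B (-1.53) and KLHL41 (-1.60), and none became higher. That count of 4 was 2 without WT day 6 replicate 1 and 0 without each of the other 7 libraries in turn, although the estimates stayed at -1.42 to -0.999 for TTN, -1.37 to -0.94 for MYL4, -1.79 to -1.31 for UNC45B and -1.73 to -1.47 for KLHL41. With 1 fit of all libraries the count was 9, and with DESeq2 it was 11.

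**Figure D5:**
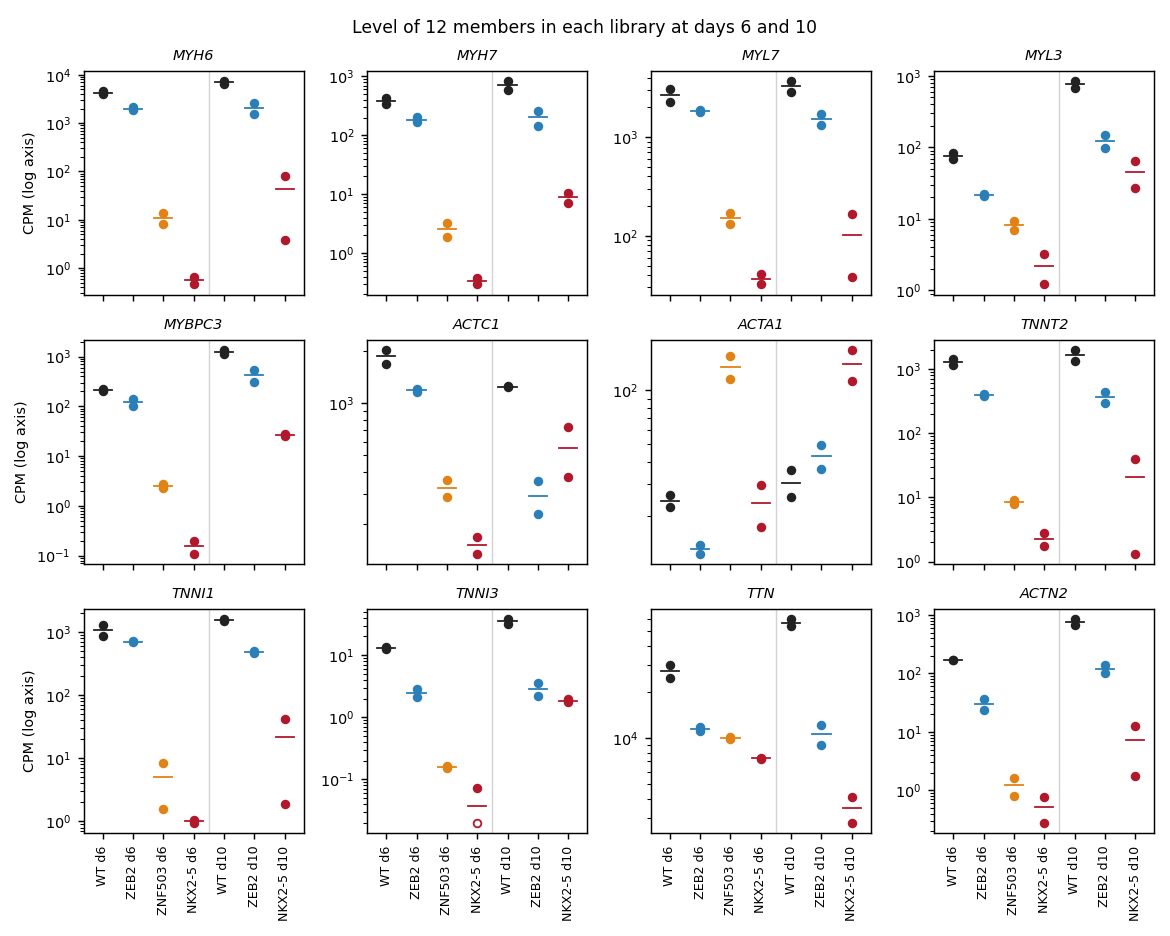
Level in CPM (log axis) of 12 members, a panel each, in every library of days 6 and 10, by line (points are libraries, horizontal lines are group means, an open circle at 0.02 marks 0 CPM). In the NKX2-5 line at day 10 MYH6 and TNNT2 show the gap between replicates, 3.86 and 81.7 CPM for MYH6, and both points lie below the 6539 to 7513 CPM of WT.

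Before the cardiac genes switched on, few members differed. The targets were themselves low in WT libraries at day 0, with NKX2-5 at 0.214 and 0.419 CPM. ZEB2 was at 0 and 0.236 CPM there, and ZNF503 at 0.107 and 0.105 CPM. In their shRNA lines NKX2-5, ZEB2 and ZNF503 were at 43.0 ± 3.35%, 118 ± 86.7% and 127 ± 31.3% of WT. For ZEB2 and ZNF503 no reduction could be seen at this day. At day 0 the NKX2-5 shRNA line had 3 of 26 members tested higher than WT and 4 lower, where 8.22% of all genes were higher and 7.64% lower. The ZNF503 line had 1 higher and 5 lower (background 3.99% and 3.51%), and the ZEB2 line had 2 higher and none lower (background 2.48% and 1.46%). TPM1 was at 157 and 289 CPM in NKX2-5 shRNA, 268 and 268 CPM in ZEB2 shRNA, 108 and 112 CPM in ZNF503 shRNA and 110.2 and 115 CPM in WT libraries. It was higher than WT in the first 2 lines (log2 fold change 0.97, SE 0.20, adjusted p = 0.0076, and log2 fold change 1.22, SE 0.20, adjusted p = 0.0057). In ZNF503 shRNA cells MYL4 had no count in either library, so its WT level of 0.374 and 0.314 CPM was at least 6.32-fold higher (taking 3 counts in each library as the limit). The counts of calls at day 0 were unstable: that of NKX2-5 shRNA cells was 1 without either WT library and 4 without NKX2-5 shRNA replicate 2. That of ZEB2 shRNA cells was 0 without any 1 of its 4 libraries, and that of ZNF503 shRNA cells was 2 without either WT library, 1 without ZNF503 shRNA replicate 1 and 0 without replicate 2.

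At day 2, 24 members could be tested. In the NKX2-5 line 1 was higher and 2 were lower than WT (13% and 13.6% of all genes), in the ZEB2 line 1 and 1 (0.206% and 0.285%), and in the ZNF503 line 3 and 4 (13.1% and 13.7%). NEBL in ZNF503 shRNA cells was the clearest, at 134 and 113 CPM against 23.7 and 21.2 CPM in WT (log2 fold change 2.40, SE 0.12, adjusted p = 4.6e-09). An entry of its short form, found also in cells that are not muscle, had 101.45 ± 1.09% of these counts there and 101.45 ± 3.69% in WT cells. Which form was higher was not tested. XIRP2 was higher in ZNF503 shRNA cells too, at 5.51 and 4.23 CPM against 1.22 and 0.613 CPM (log2 fold change 2.28, SE 0.33, adjusted p = 0.00015). TMOD1 was lower, at 0.438 and 1.03 CPM against 2.83 and 2.76 CPM (log2 fold change -2.22, SE 0.36, adjusted p = 0.00033). In ZEB2 shRNA cells the 2 calls, NEBL (0.69) and TTN (-0.73), were reduced to 0 without either WT library or without ZEB2 shRNA replicate 1, and to 1 without ZEB2 shRNA replicate 2.

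Transcript entries of the same gene share exons, and their ratio shows whether the form of a gene differed. For NEBL, an entry of the short form was set against the entry of the long sarcomeric form. The short form is also called LASP2 or nebulette isoform 2 and is found also in cells that are not muscle. Its entry had 95.8 ± 0.875% of the counts of the long-form entry in WT cells at day 0, 53.0 ± 1.73% at day 6 and 56.3 ± 2.85% at day 10. At day 6 this ratio was 51.3 ± 0.142% in ZEB2 shRNA, 86.8 ± 4.50% in NKX2-5 shRNA and 91.1 ± 0.974% in ZNF503 shRNA cells, so the last pair stayed nearer to the day 0 ratio. The long-form entry, whose counts include shared exons, was at 23.8 and 25.0 CPM in NKX2-5 shRNA libraries. It was at 45.4 and 36.0 CPM in ZNF503 shRNA libraries and 4082 and 3282 CPM in WT libraries. For TTN, the entry of the short novex-3 form had 21.0 ± 0.592% of the counts of the longest entry in WT cells at day 6 and 20.0 ± 0.0985% in ZEB2 shRNA cells, but 14.5 ± 0.216% in NKX2-5 shRNA and 13.6 ± 0.143% in ZNF503 shRNA cells. For TPM1, a second entry had 71.2 ± 0.663% of the counts of the largest entry at day 0, 88.2 ± 0.552% at day 6 and 119.6 ± 7.76% at day 10 in WT cells. At day 10 it had 81.6 ± 1.08% in ZEB2 shRNA and 70.8 ± 4.75% in NKX2-5 shRNA cells, below both WT libraries. These ratios are descriptions of 2 libraries each and were not tested.

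Other sarcomere genes outside the list of 35 went the same way. Of 22 tested at day 6, 18 were lower than WT with the NKX2-5 shRNA, 15 with that against ZNF503 and 15 with that against ZEB2 (24.7%, 28.5% and 5.33% of all genes), with 1, 2 and 1 higher (24.5%, 27.2% and 5.67%). At day 10 the NKX2-5 line had 18 of 23 lower and 1 higher (20.6% and 23.3% of all genes), and the ZEB2 line 15 of 23 lower and 0 higher (7.68% and 10.5%). In WT cells 18 of 22 rose between days 6 and 10 and none fell (28.3% and 29.2% of all genes). The cytoskeletal counterparts that all cells use, such as the actins ACTB and ACTG1, the myosins MYH9 and MYH10 and the actinins ACTN1 and ACTN4, were different. All 12 of them fell between days 6 and 10 in WT cells, where 29.2% of all genes did. At day 6, 10 of 12 were higher than WT in ZNF503 shRNA cells and 1 lower, 6 were higher and 1 lower in NKX2-5 shRNA cells, and none passed the edgeR test in ZEB2 shRNA cells (5 had an unadjusted p under 0.05), where 27.2%, 24.5% and 5.67% of all genes were higher. The gene that was lower in both lines was MYL6. Their summed levels at day 6 were 9334 and 8615 CPM in ZNF503 shRNA, 6903 and 7320.0 CPM in NKX2-5 shRNA, 6385 and 6662 CPM in ZEB2 shRNA and 7245 and 7036 CPM in WT libraries, so that both ZNF503 shRNA libraries and 1 of the 2 NKX2-5 shRNA libraries lay above both WT libraries. At day 10, 10 of 12 were higher in NKX2-5 shRNA cells and 5 of 12 in ZEB2 shRNA cells, with none lower in either (23.3% and 10.5% of all genes higher). Fast and embryonic skeletal muscle isoforms stayed low throughout, summing over 16 genes to 61.5 and 61.9 CPM in WT cells at day 10, where the thin filament members alone summed to 9365 and 7424 CPM.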

How the data were processed

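RNA sequencing counts were taken for 35 sarcomere and myofibril genes in H1 cells of 3 knockdown lines (NKX2-5, ZNF503, ZEB2) and in WT cells. The values are raw read counts as deposited by the authors, who, per their methods and processing notes, mapped stranded total RNA reads to hg19 (GRCh37) with TopHat2 2.0.14 and Bowtie2 2.2.1.0 (2 mismatches, 1 best hit) and counted reads per RefSeq gene region with RSeQC. Use of strand in counting is not given in the sources used here. Of 41627 transcript accessions, 40281 (96.8%) had a symbol. The entry with the largest total stood for each gene, since entries of 1 gene share reads (15 members had several, at most 7).

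In 4 of 34 columns, WT and ZEB2 shRNA day 10 replicates 1 and 2, there are 1077 rows more than accessions and values do not follow them. These were not used, and replicates 3 and 4 stand for those groups. Replicates differed by more than counting noise (chi-square per gene from 5.16 to 102).

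Tests used edgeR 4.0.16 in R 4.3.3 (TMM, filterByExpr, glmQLFit and glmQLFTest, prior count 0.125), p-values adjusted across every gene tested by Benjamini and Hochberg's procedure, and calls at 5% FDR. Groups of 1 day were fitted together, WT groups for time, and WT, ZEB2 and NKX2-5 shRNA groups of days 6 and 10 for interactions. The standard error is the log2 fold change over the square root of F. The study's own thresholds were 2-fold and 10% FDR at day 0, 4-fold and 10% at day 2, and 8-fold and 1% at days 6 and 10. A group at or under 3 counts is given by its counts with a 95% interval, which covers counting error only. Levels per kilobase used GENCODE canonical transcripts. Code was tested on simulated data.

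Alternatives were other normalization, no filter, 1 fit of all libraries, the exact test of edgeR, DESeq2 1.42.0, the second largest entry per gene, a replicate block and leaving out each library. The members and all gene lists were chosen with earlier results of these data known. Every member is named, and values per library are given for genes that define the cardiac sarcomere and, in each comparison, for those with the largest or smallest change or that moved against the others.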

Additional observations from a re-analysis of the deposited data

Results flagged for a closer look

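The difference from WT changed between days 6 and 10 for 20 gene and line pairs by the interaction term of edgeR at 5% FDR. In ZEB2 shRNA cells the interaction, in log2 units, was -1.14 for MYL4, -1.20 for TTN, -1.53 for UNC45B and -1.60 for KLHL41. All 4 genes were therefore lower relative to WT at day 10 than at day 6. Their number was 0 to 2 when 1 library was left out, while the estimates stayed negative, and was 9 with 1 fit of all libraries and 11 with DESeq2.

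In NKX2-5 shRNA cells the interaction was positive for filament genes, at 5.60 for MYH6, 3.79 for MYH7, 4.74 for MYBPC3, 1.51 for MYL4, 1.56 for MYLK3, 2.47 for ACTC1, 2.25 for ACTA1, 1.64 for TPM2, 3.88 for TNNI1 and 4.49 for TNNI3, the last from 2 counts at day 6. Among assembly and attachment genes it was 3.84 for UNC45B, 2.83 for KLHL41 and 4.07 for CRYAB. It was negative at -2.11 for TTN, -3.53 for MYOM2 and -2.14 for OBSL1. The replicates of NKX2-5 shRNA cells at day 10 differed by a median of 2.26-fold over the members, and the part of this in the interactions was not tested.

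At day 6 the ACTA1 effects of the ZEB2 and ZNF503 lines differed by -3.37 on the log2 scale, ZEB2 shRNA against ZNF503 shRNA cells. ACTA1 was below WT in both ZEB2 shRNA libraries and above it in both ZNF503 shRNA libraries.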

How the results depend on the processing

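Of 7735 values of single members under the alternatives, 7048 kept their direction and side of the threshold, 311 lost and 197 gained a call, and 179 turned in sign, none of them for a member that had passed. Depth limits the low members, since 3 counts were 0.0336 to 0.323 CPM depending on the library.

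At the study's thresholds the number of members called was 0 in place of 23 for ZEB2 shRNA against WT at day 6, 4 in place of 21 at day 10, 5 in place of 10 for WT day 2 against day 0, 7 in place of 25 for WT day 10 against day 6, 3 in place of 17 for NKX2-5 against ZNF503 shRNA at day 6, 10 in place of 24 for ZEB2 against NKX2-5 shRNA at day 10, 0 in place of 4 for the ZEB2 shRNA interaction and 4 in place of 16 for that of NKX2-5 shRNA. At day 2 they gave 1 for NKX2-5, 0 for ZEB2 and 4 for ZNF503 shRNA cells, in place of 3, 2 and 7. For NKX2-5 shRNA at day 0 (7 called), no filter gave 11 and 1 fit of all libraries 3. For ZEB2 shRNA at day 0 (2 called), no normalization factors and 1 fit each gave 1, no filter 8, the exact test of edgeR 4 and DESeq2 5. The exact test gave 6 for NKX2-5 shRNA at day 2, and 1 fit gave 0 for ZEB2 and 4 for ZNF503 shRNA. The ZEB2 shRNA interaction gave 2 members without normalization factors, 9 in 1 fit and 11 with DESeq2. The causes were not tested. Scaling by totals alone shifts all genes by more than 0.1 on the log2 scale in 3 comparisons with WT groups, 0.19 for WT day 2 against day 0, -0.16 for NKX2-5 shRNA at day 2 and 0.17 for ZEB2 shRNA at day 10.

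Deviations of same-numbered libraries of a day correlated at r from -0.198 to 0.259, which neither shows nor excludes a pairing by replicate number. At day 10 only WT and ZEB2 shRNA libraries could be compared in this way. A shift between replicate sets with different numbers cannot be seen by such a correlation. The replicate block gave 1 call for ZEB2 shRNA at day 0, 5 for NKX2-5 shRNA at day 2 and 30 for ZEB2 shRNA at day 10, as did the crossed pairing added after seeing the data (r = -0.16). At day 10 both were fitted on the WT and ZEB2 shRNA libraries alone, which also gave 30 without a block. The replicate block moved no other count by over 1.5 times.

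Leaving out 1 library gave 1 to 7, 0 to 0 and 0 to 2 calls at day 0 for NKX2-5, ZEB2 and ZNF503 shRNA, 2 to 3, 0 to 1 and 5 to 7 at day 2, 27 to 27, 18 to 24 and 26 to 27 at day 6, and 26 to 32 and 4 to 7 at day 10 for NKX2-5 and ZEB2 shRNA. For WT it gave 6 to 10 (day 2 against 0), 31 to 32, 32 to 32 and 24 to 29 (day 10 against 6). Between lines it gave 26 to 28, 25 to 26 and 14 to 19 at day 6, 12 to 28 at day 10, and 0 to 2 and 11 to 23 for the ZEB2 and NKX2-5 shRNA interactions. A group left with 1 library was assumed to vary like the others. Among members that did not pass, signs turned for ACTA1 in NKX2-5 shRNA cells at day 6 (0.0069 without normalization factors, -0.49 to 0.29 with a library left out), OBSL1 in ZNF503 shRNA cells at day 6 (-0.13 to 0.48), and TPM2 (-0.60 to 0.26) and CRYAB (-1.01 to 1.43) in NKX2-5 shRNA cells at day 10.

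Without ACTC1, MYH6, MYH7 and TTN the members summed to 246, 17413 and 20326 CPM in WT cells at days 0, 6 and 10 (298, 51284 and 85811 with them), to 935 and 1549 in NKX2-5 shRNA cells at days 6 and 10 (8434 and 5612), to 8764 and 6646 in ZEB2 shRNA cells (23609 and 19728) and to 1653 in ZNF503 shRNA cells at day 6 (11938). Without normalization factors the NKX2-5 shRNA sum at day 6 was 8337. With coding length, the TNNI3 share in WT cells was 1.11% at day 6 and 1.99% at day 10, the ACTA1 share 1.29% and the TPM2 share 6.71% at day 6. With the second largest entry per gene the TPM2 share was 7.31% at day 6 and 9.09% at day 10, in place of 6.85% and 6.94%.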
